A study of Mus musculus with 10 samples.

Results

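The 10 genes described here were listed as genes of blood vessel endothelium: Eng, Ramp2, Ecscr, Pecam1, Cdh5, Kdr, Flt1, Tek, Tie1 and Emcn. They were taken by name from a table of 13578 genes, and all 10 had a row. Eng, Ramp2 and Ecscr entered the list because they had the smallest p-values of an endothelial list in this same comparison. Their differences are therefore given as a description with no test. The other 7 entered as endothelial genes, and the question was whether Eng moved with the other 9. Expression was measured by RNA sequencing of gonadal somatic cells from single female mouse embryos at embryonic day 13.5, sorted as the fraction without the germ cell factor Oct4. All embryos were Gulo-/- on a C57BL/6 background, so that none could make vitamin C and each depended on the maternal diet. In 5 embryos vitamin C was withdrawn over the first 2 weeks of gestation, and in 5 it was supplied at physiological levels. In each group 2 embryos (2 and 3) share the first number of their titles, so that a group of 5 has 4 such numbers; whether a number marks a litter or dam is not stated.

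Endothelial cells line blood vessels and are guided by a small set of surface receptors. VEGF receptors drive their growth, the TIE receptors keep vessels stable, and VE-cadherin and PECAM-1 hold neighbouring cells together. Endoglin, the product of Eng, is a co-receptor that presents BMP and TGF-beta ligands to the receptor kinase ALK1 (Acvrl1), and loss of one human copy causes hereditary haemorrhagic telangiectasia. In the fetal testis, endothelial cells enter from the adjoining mesonephros and build the vessels around the germ cell cords, whereas all embryos here were female.

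The values were deposited as regularised log2 (rlog) expression, and the median of a library was 9.12 to 9.14. How deeply each library was read is unknown. All differences are withdrawn minus supplied on this scale, which understates changes of weakly expressed genes, and ± marks the SD over n = 5 embryos. The values are not per transcript length, so levels of different genes are not ranked. All 13 gonadal soma markers had a row, Foxl2, Wt1 and Nr5a1 among them. Of 11 germ cell markers 3 had one, with embryo means of 4.91 to 5.01 in withdrawn and 4.95 to 5.06 in supplied embryos. In bulk RNA, fewer endothelial cells and less RNA per endothelial cell cannot be told apart. Nor do these values show how much RNA of each listed gene came from cells other than endothelium.

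Proximal promoters are shown for Eng, for Emcn and Tek, the genes of highest correlation with Eng within the groups, and for Tie1, whose correlation with Eng was below 0. RefSeq windows (GRCm38.p6) from 250 bases before to 50 after the start were used for 6 of the 10 genes. Ecscr was left out of this step. Capitals mark the ETS-type motif CNGGAAG on either strand, since ETS factors such as ERG are known regulators of endothelial genes.
Eng (chr2:32646345-32646644, plus strand): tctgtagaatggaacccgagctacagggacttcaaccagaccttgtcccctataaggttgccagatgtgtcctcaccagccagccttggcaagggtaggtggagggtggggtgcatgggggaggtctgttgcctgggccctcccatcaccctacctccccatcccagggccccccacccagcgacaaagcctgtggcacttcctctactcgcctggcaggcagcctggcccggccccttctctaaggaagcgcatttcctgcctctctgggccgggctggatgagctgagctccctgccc
Emcn (chr3:137340828-137341127, plus strand): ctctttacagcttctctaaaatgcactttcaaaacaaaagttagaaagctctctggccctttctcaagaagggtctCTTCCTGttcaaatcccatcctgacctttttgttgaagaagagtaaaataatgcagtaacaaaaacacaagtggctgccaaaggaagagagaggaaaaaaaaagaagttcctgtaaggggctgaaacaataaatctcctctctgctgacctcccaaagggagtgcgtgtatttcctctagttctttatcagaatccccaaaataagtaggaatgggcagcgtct
Tek (chr4:94739039-94739338, plus strand): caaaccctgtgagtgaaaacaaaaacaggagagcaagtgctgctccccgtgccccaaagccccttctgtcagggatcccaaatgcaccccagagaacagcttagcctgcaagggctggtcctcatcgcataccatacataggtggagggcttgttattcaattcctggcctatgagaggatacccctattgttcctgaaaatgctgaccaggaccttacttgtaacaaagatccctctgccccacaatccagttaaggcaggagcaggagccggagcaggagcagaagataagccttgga
Tie1 (chr4:118489800-118490099, minus strand): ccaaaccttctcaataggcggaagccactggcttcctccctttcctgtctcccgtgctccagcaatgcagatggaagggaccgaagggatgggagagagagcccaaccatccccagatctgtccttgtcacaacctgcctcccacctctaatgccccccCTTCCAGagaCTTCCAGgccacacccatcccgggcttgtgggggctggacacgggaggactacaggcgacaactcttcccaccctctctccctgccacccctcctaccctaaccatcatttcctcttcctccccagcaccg
The motif lay in 3 of the 6 windows (Emcn, Tie1 and Flt1), against 31.9% of 32851 windows of this length. Eng, Tek and Kdr had no match in these letters. The shorter run ggaag does occur in the Eng window, so the missing match does not show a lack of ETS sites. The GATA-type motif AGATAA, searched on both strands and not capitalised, lay in 1 of the 6, that of Tek, against 11.2% of all windows.

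Eng was lower in the embryos without vitamin C than in nearly all supplied ones. It stood at 9.73, 10.067, 9.98, 9.69 and 10.063 in withdrawn embryos 1 to 5, and at 10.35, 10.066, 10.27, 10.49 and 10.30 in supplied embryos 1 to 5. The groups met at a single point, where supplied embryo 2 lay just below withdrawn embryo 2, and in 24 of 25 pairings the withdrawn embryo was the lower. The means were 9.91 ± 0.182 in withdrawn and 10.30 ± 0.153 in supplied embryos, a difference of -0.39 (SE 0.0821), or 0.765-fold on the rlog scale. In the annotation, an exon of Eng overlaps one of Fpgs, a gene of folate metabolism on the opposite strand, and no source used here states whether reads were counted by strand. Fpgs averaged 9.48 ± 0.0731 in withdrawn and 9.43 ± 0.126 in supplied embryos, a difference of 0.045.

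**Figure D1:**
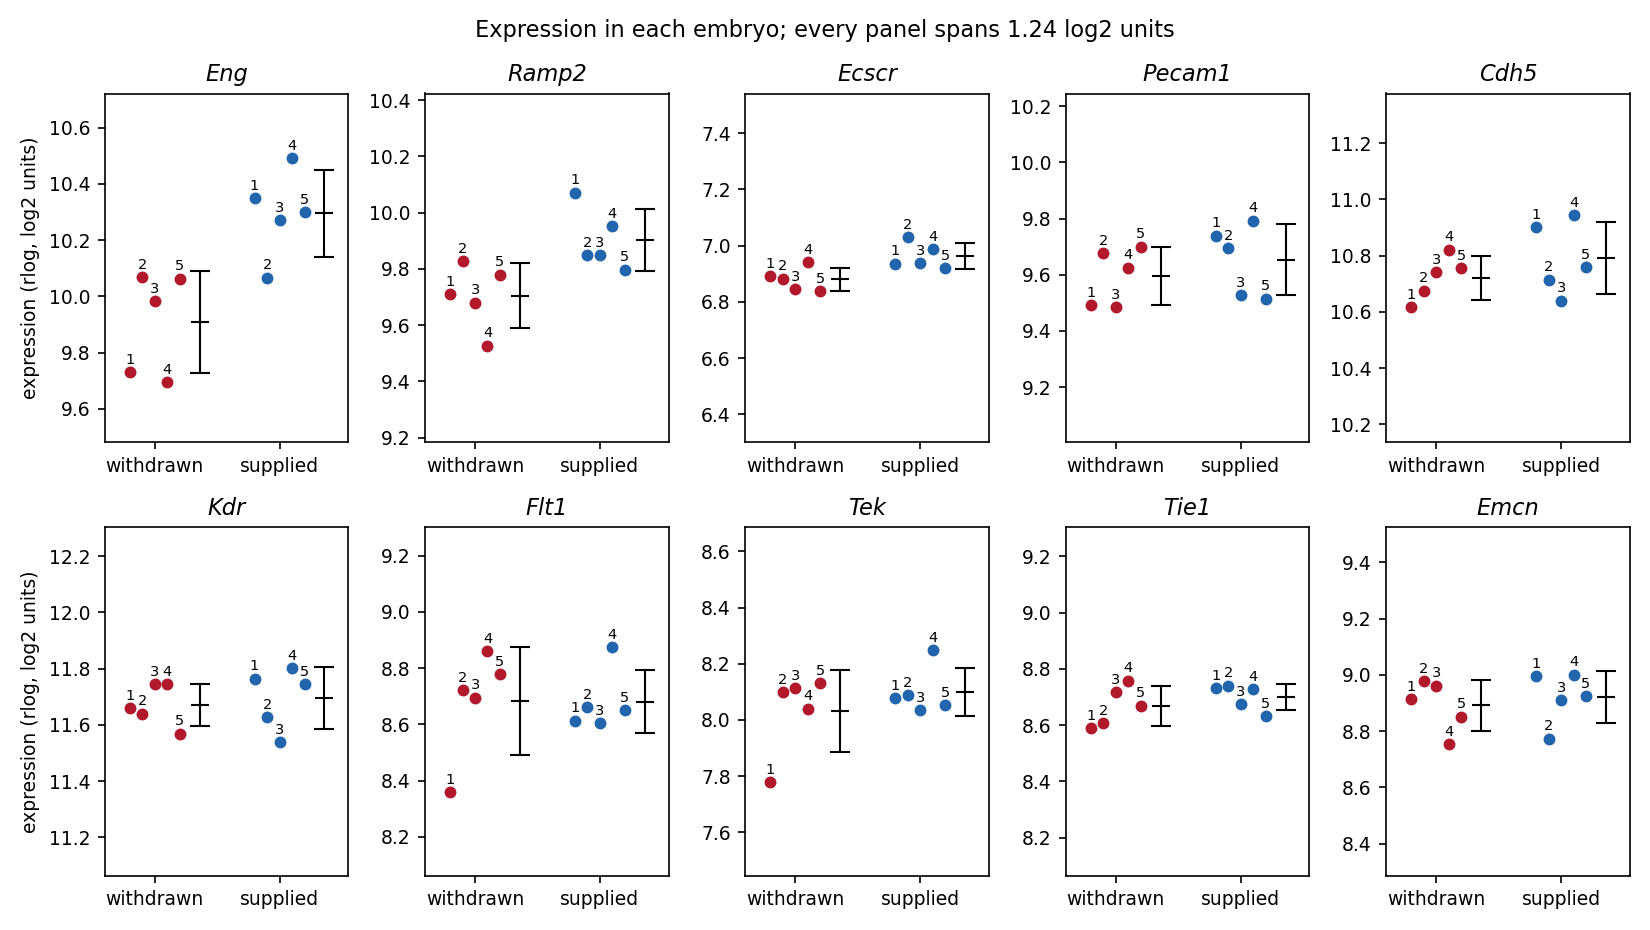
Expression of each of the 10 genes (y axis, rlog in log2 units) in withdrawn embryos (red, left) and supplied embryos (blue, right), with embryo numbers above the points and the mean ± SD (n = 5) beside them. Every panel spans the same height: Eng shows the widest gap between the groups, at -0.39, whereas Flt1 and Tek have a single low point, withdrawn embryo 1.

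Ramp2 had the next largest difference and Ecscr a small one. Ramp2 turns the receptor protein encoded by Calcrl into the adrenomedullin receptor, which vessels need in development. Its values were 9.71, 9.83, 9.68, 9.53 and 9.78 in withdrawn embryos 1 to 5, and 10.07, 9.85, 9.85, 9.95 and 9.80 in supplied embryos 1 to 5. The lowest supplied embryo lay below the highest withdrawn one, so the groups overlapped, and the difference was -0.20 (SE 0.0613). In 24 of 25 pairings the withdrawn embryo was the lower, the same count as for Eng. Ramp2 shares exon sequence with Vps25 on the same strand, which differed by -0.084, so reads of this pair may be split between them. Ecscr, an endothelial surface protein of chemotaxis, averaged 6.88 ± 0.0415 in withdrawn and 6.96 ± 0.0455 in supplied embryos, a difference of -0.082. It too overlaps another gene, 1700066B19Rik, on the opposite strand.

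The VEGF receptors were at nearly the same mean in both groups. Kdr, the main signalling receptor for VEGF-A, averaged 11.67 ± 0.0749 in withdrawn and 11.70 ± 0.110 in supplied embryos, a difference of -0.023 with a 95% interval from -0.14 to 0.092. Flt1, a receptor that also traps VEGF-A, was at 8.36, 8.72, 8.70, 8.86 and 8.78 in withdrawn embryos 1 to 5, and at 8.61, 8.66, 8.60, 8.87 and 8.65 in supplied embryos 1 to 5. Withdrawn embryo 1 was the lowest of all, and the other 4 withdrawn embryos lay above 4 of the 5 supplied ones. The Flt1 difference was 0.0026, with an interval from -0.16 to 0.17, and without withdrawn embryo 1 it was 0.084.

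The TIE receptors differed by less than the spread between embryos. Tek, the receptor for angiopoietins, was at 7.78, 8.10, 8.11, 8.04 and 8.13 in withdrawn embryos 1 to 5, and at 8.08, 8.09, 8.04, 8.25 and 8.05 in supplied embryos 1 to 5. Withdrawn embryo 1 was again the lowest and supplied embryo 4 the highest, and the other 8 lay close together. The Tek difference was -0.068 (95% interval -0.20 to 0.067), and without withdrawn embryo 1 it was -0.0045. Tie1, the partner of Tek, averaged 8.67 ± 0.0712 in withdrawn and 8.70 ± 0.0468 in supplied embryos, a difference of -0.033 (interval -0.13 to 0.065), which ran from -0.055 to -0.013 with each embryo left out in turn.

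The junction and surface genes also overlapped between the groups. Cdh5, which encodes VE-cadherin, ranged from 10.62 to 10.82 in withdrawn and from 10.64 to 10.94 in supplied embryos, with a difference of -0.069 (95% interval -0.19 to 0.055; -0.11 to -0.031 with each embryo left out in turn). Pecam1 ranged from 9.48 to 9.70 in withdrawn and from 9.52 to 9.79 in supplied embryos, with a difference of -0.058 (interval -0.19 to 0.073; -0.093 to -0.023 with each embryo left out). Emcn, a sialomucin of capillary and venous endothelium, was at 8.91, 8.98, 8.96, 8.75 and 8.85 in withdrawn embryos 1 to 5, and at 8.995, 8.77, 8.91, 9.001 and 8.92 in supplied embryos 1 to 5. Its low embryos, withdrawn 4 and supplied 2, were also the lowest of their group for Eng, and its difference was -0.029 (interval -0.15 to 0.087).

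By limma over all 13578 genes with Benjamini-Hochberg adjustment, 0 of the 10 genes passed an adjusted p of 0.05 in either direction, against 3 genes in all that fell (0.0221%) and 0 that rose (0%). The 7 genes not chosen by their p-values had adjusted p between 0.983 and 0.999, and 0 of the 7 had an unadjusted p under 0.05, which 2.84% of all genes reached on the lower and 2.45% on the higher side. Of these 7, 6 were lower in withdrawn embryos, with a median difference of -0.033; over all genes 49.8% were lower and the median was 0.00021. With the 3 genes chosen for their falls included, 9 of the 10 were lower and the median was -0.063, a value that the choice of those 3 sets in part. None of the 10 had all withdrawn embryos below all supplied ones, which 0.464% of all genes did. The median of the 10 was -0.028 with supplied embryo 4 left out and -0.033 with withdrawn embryo 1 left out.

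**Figure D2:**
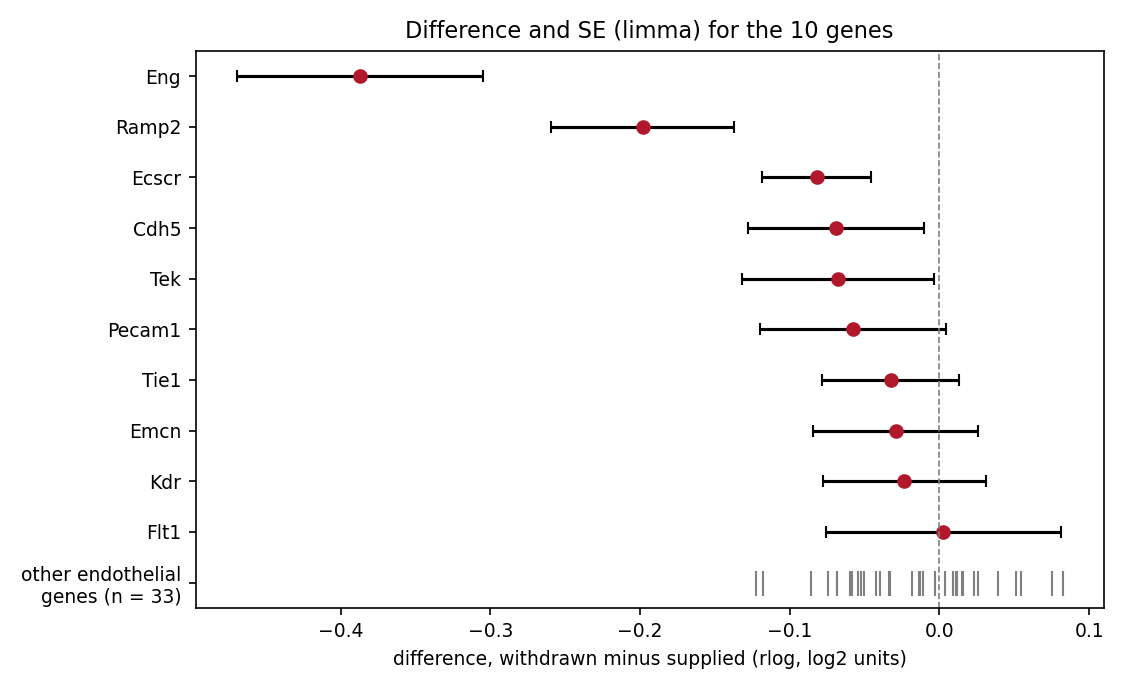
Differences between the groups (x axis, withdrawn minus supplied, rlog in log2 units) for the 10 genes, with the SE from limma as bars, and for 33 further endothelial genes as grey ticks. Eng lies at -0.39 and Ramp2 at -0.20, and the ticks run from -0.12 to 0.082; Eng, Ramp2 and Ecscr were chosen for small p-values in this comparison.

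The difference of Eng between the groups was larger than that of any of the other 9 genes. The mean of the other 9 was 9.11, 9.234, 9.22, 9.230 and 9.230 in withdrawn embryos 1 to 5, and 9.31, 9.24, 9.19, 9.37 and 9.22 in supplied embryos 1 to 5. These groups overlapped: 4 withdrawn embryos lay within the range of the supplied ones and withdrawn embryo 1 lay below it. The difference of this mean was -0.062. Ramp2, at -0.20, and Ecscr, at -0.082, are part of this mean and were chosen for small p-values. That choice therefore sets the mean, and the gap of Eng to it, in part. The 7 genes not chosen by p had a median difference of -0.033. Leaving out supplied embryo 4 gave -0.036, and leaving out withdrawn embryo 1 gave -0.039. Eng minus the mean of the other 9 was 0.617, 0.833, 0.763, 0.465 and 0.833 in withdrawn embryos 1 to 5, and 1.03, 0.824, 1.08, 1.12 and 1.08 in supplied embryos 1 to 5. Supplied embryo 2 again lay among the withdrawn embryos, and the other 4 supplied embryos lay above all 5 of them. The difference of this gap was -0.33, and with any 1 embryo left out it stayed between -0.38 and -0.27. Eng was chosen for its difference, so no test is given.

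The 33 further endothelial genes, among them the SOXF factors, Erg, Fli1, Cldn5, Cd34 and Robo4, lay close to 0. With group means subtracted, their mean correlated with that of the other 9 genes at r = 0.892, a description with no test, and with Eng at r = 0.550 (rho = 0.588, adjusted permutation p = 0.633 and 0.663). That with Eng was 0.947 without supplied embryo 2 and withdrawn embryo 4, the 2 embryos farthest from the median of Eng. By limma 0 of the 33 passed over all genes, against 0.0221% of all genes, and 0 had an unadjusted p under 0.05. Such a p was reached by 2.84% of all genes on the lower and 2.45% on the higher side. For 33 genes a count of 0 lies near those shares. The differences of 20 were below 0, against 49.8% of all genes, and the median was -0.014. Of the 33, those of smallest p were Myct1 at 0.054, the tight junction gene Cldn5 at -0.086 and the Notch ligand Dll4 at -0.075. Their mean was lowest of all in withdrawn embryo 1, at 8.04, and highest in supplied embryo 4, at 8.22, the same embryos that were at the ends for the other 9 genes. With this mean as a covariate the difference of Eng was -0.36 and that of Tek -0.031.

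**Figure D3:**
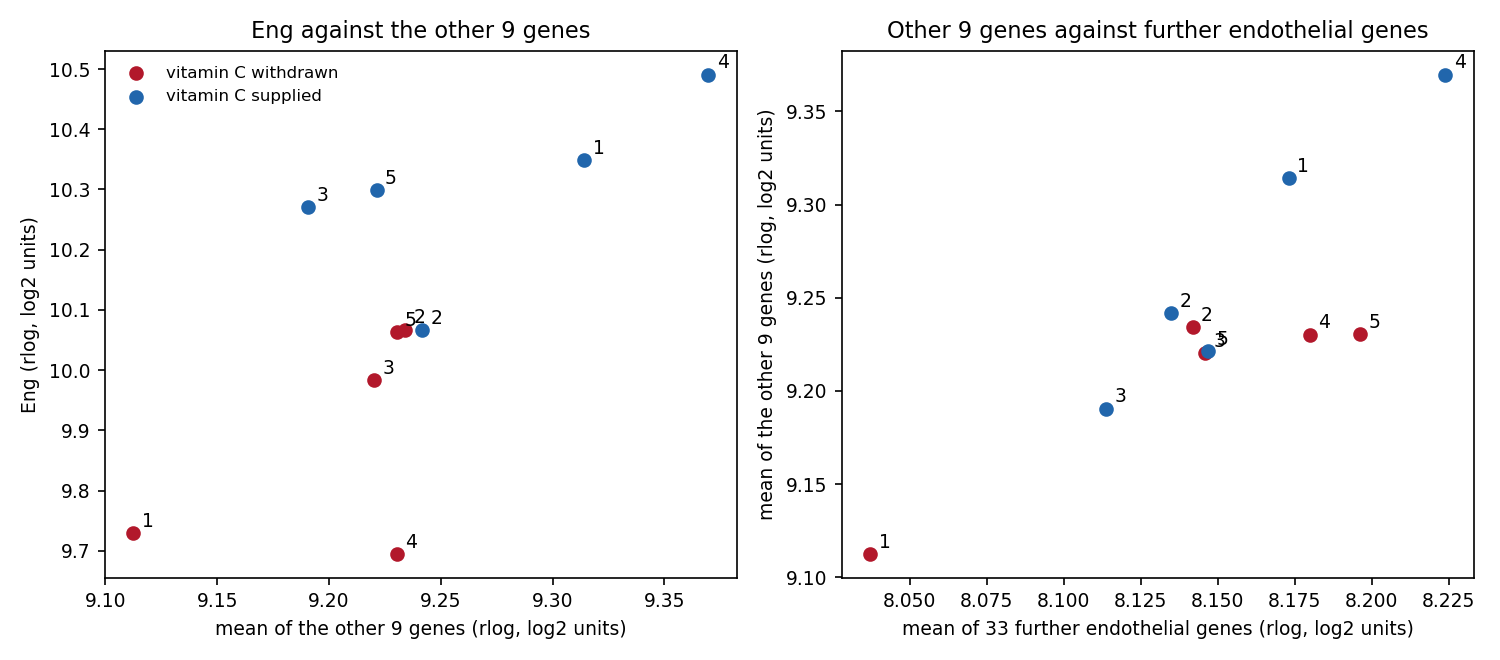
Left, Eng (y axis) against the mean of the other 9 genes (x axis); right, that mean (y axis) against the mean of 33 further endothelial genes (x axis), all rlog in log2 units, with withdrawn embryos in red and supplied in blue and embryo numbers beside the points. At a similar mean of the other 9 genes, withdrawn embryo 4 was at 9.69 for Eng and supplied embryo 5 at 10.30, whereas withdrawn embryo 2 and supplied embryo 2 were at 10.067 and 10.066.

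Within the groups, the correlation of Eng with the other genes ran from 0.746 for Emcn to -0.606 for Ecscr. Group means were subtracted, so that the difference that chose Eng was removed, and the 10 embryos were correlated. The highest values were those of Emcn (Pearson r = 0.746, Spearman rho = 0.758), then Tek (r = 0.670, rho = 0.673) and Ramp2 (r = 0.649, rho = 0.648). Lower values over all 10 embryos were those of Flt1 (r = 0.388, rho = 0.467), Pecam1 (r = 0.375, rho = 0.515) and Cdh5 (r = 0.373, rho = 0.479), for which r ran over 0.0894 to 0.791, 0.198 to 0.540 and 0.153 to 0.696 as each embryo was left out in turn. For Kdr it was near 0 (r = 0.124, rho = 0.273), and it was below 0 for Tie1 (r = -0.155, rho = -0.164) and Ecscr (r = -0.606, rho = -0.406). With each embryo left out in turn, Kdr ran from -0.11 to 0.34 and Tie1 from -0.48 to 0.20, so the order of these genes is not firm.

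None of the 9 correlations passed an exact permutation test within groups (14400 pairings, two-sided, Benjamini-Hochberg over the 9). For Emcn the permutation p was 0.0259 for r and 0.0235 for rho, with adjusted permutation p of 0.141 and 0.188. For Tek the permutation p was 0.0314 for r and 0.0490 for rho, with the same adjusted values. The other 7 had adjusted permutation p for r between 0.181 and 0.739, and for rho between 0.188 and 0.668. Without withdrawn embryo 5 the pair of Eng and Emcn reached r = 0.881 and passed (adjusted permutation p = 0.0031), whereas in the 16 other settings its adjusted permutation p lay between 0.0581 and 0.625. The values shifted strongly when supplied embryo 2 and withdrawn embryo 4, the embryos farthest from the median of Eng after group means were subtracted, were left out. In the remaining 8 embryos r was 0.319 for Emcn and 0.017 for Ecscr, so the values of these genes over 10 embryos rest on those 2. It was 0.451 for Ramp2, 0.973 for Tek, 0.970 for Flt1, 0.750 for Pecam1, 0.676 for Cdh5, 0.528 for Tie1 and 0.195 for Kdr.

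**Figure D4:**
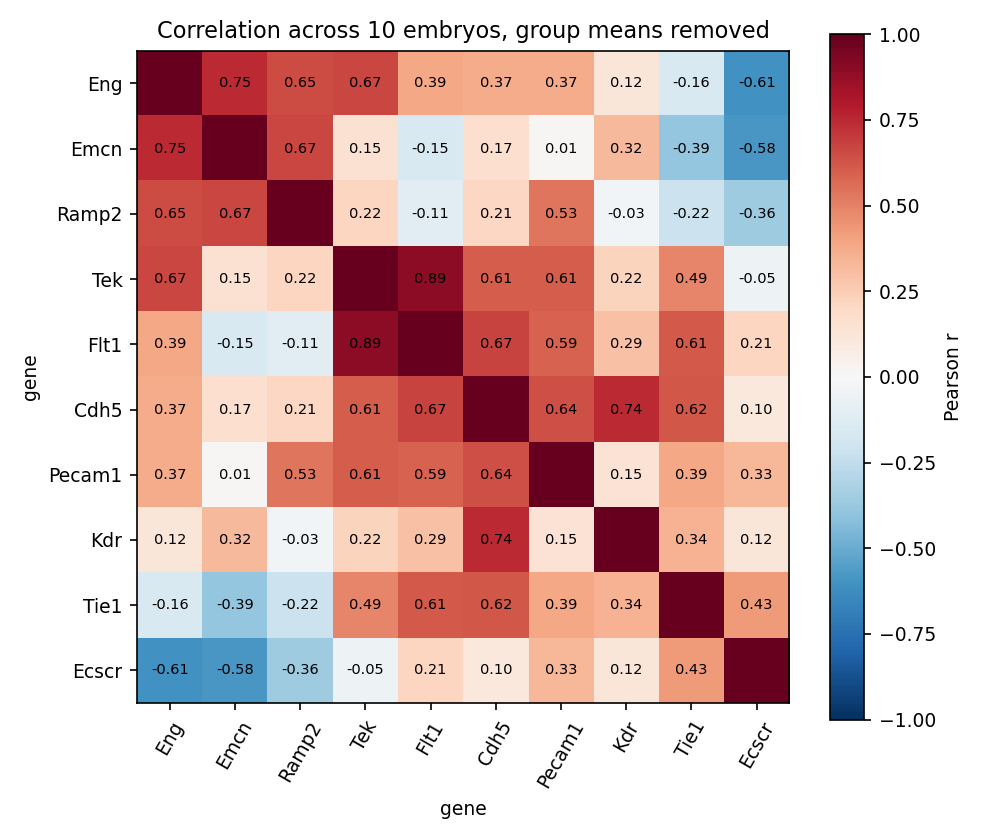
Pearson r between each pair of the 10 genes (both axes) across 10 embryos after group means were subtracted; colour and printed value give r. Eng is highest with Emcn at 0.75, and the highest value of all is that of Flt1 with Tek at 0.89.

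Correlations among the other genes were also uneven. The closest pair of all was Flt1 with Tek (r = 0.892), followed by Eng with Emcn and Cdh5 with Kdr (r = 0.745). The 36 pairs without Eng had a median r of 0.257, from -0.583 for Ecscr with Emcn upwards, and the 9 pairs with Eng a median of 0.375. Against the mean of the other 8 genes apart from Eng, Cdh5 reached r = 0.838, Tek 0.757, Pecam1 0.714 and Flt1 0.638. Tie1 and Kdr were at 0.473 and 0.418, and Ramp2, Emcn and Ecscr at 0.227, 0.128 and 0.0353 against the same kind of mean. Ranks by this measure among 13570 genes ran from 52 for Cdh5 to 6312 for Ecscr. Eng against the mean of the other 9 was at r = 0.595, rank 922 of 13569 genes, and 0.886 without supplied embryo 2 and withdrawn embryo 4. With the mean of the 33 further endothelial genes as a covariate it was 0.278, and 3 of the 9 pairs with Eng stayed above 0. Without withdrawn embryo 4, which was the lowest for Eng and in the middle for the other 9, r was 0.786. Without the 3 libraries of highest Fos, supplied embryo 4 and withdrawn embryos 2 and 3, it was 0.354. These values are descriptions, since the genes were chosen with earlier results known.

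Outside the 10 genes, those most like Eng across embryos by the same measure were Mgat5, an enzyme that branches N-glycans (r = 0.955), Arhgap8 (r = 0.939), the transcription factors Nfix (r = 0.932) and Cebpb (r = 0.914), and Hivep3 (r = 0.913). Their differences between the groups ran from -0.050 for Cebpb to 0.11 for Nfix. Most like the mean of the other 9 were Errfi1, an inhibitor of EGF receptor signalling (r = 0.952), Klf12 (r = 0.942), Tmem184b (r = 0.937), Cyp26b1, which breaks down retinoic acid (r = 0.911), and Pdgfb, the endothelial ligand that recruits mural cells (r = 0.910). These were picked as the highest of all genes outside the 10, so no p is given.

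The receptors, ligands and response genes of the endoglin pathway gave 0 calls by limma over all genes. Of 10 BMP and TGF-beta receptors 6 were below 0, with a median of -0.0019. Acvrl1, the kinase partner of endoglin, differed by -0.073, and of the receptors of smallest p Tgfbr3 was at 0.098, Bmpr1b at -0.082 and Tgfbr2 at 0.072. Tgfbr3 encodes betaglycan, a co-receptor related to endoglin, and was the 1 receptor with an unadjusted p under 0.05. Of all genes, 2.84% reached such a p on the lower and 2.45% on the higher side. Of 9 ligands with a row, 3 were below 0 and 0 had an unadjusted p under 0.05, with Bmp2 at -0.096, Inhba at 0.093 and Bmp5 at 0.047. The endoglin ligands Gdf2 and Bmp10 were listed but had no row, so they were not analysed. Among 16 SMADs and response genes the median was 0.015. Smad1, which carries the BMP signal, was at 0.091 and was the 1 with an unadjusted p under 0.05; Id3 was at 0.099, Id4 at -0.085 and Id1 at -0.0053.

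The partners of the other receptors also gave 0 calls by limma. Among 8 further VEGF ligands and receptors, the neuropilin gene Nrp2 was at -0.20 and was the 1 with an unadjusted p under 0.05. Vegfc was at -0.067 and Figf at 0.089. Such a p was reached by 2.84% of all genes on the lower and 2.45% on the higher side. In the angiopoietin axis, where 0 of 4 had such a p, the phosphatase gene Ptprb, whose product restrains TIE2 signalling, was at -0.12, Svep1 at 0.12 and Angpt2 at -0.060. In the adrenomedullin axis, also with 0 of 5, Ramp1 was at -0.027, Crcp at 0.044, Adm at -0.049 and Calcrl, the receptor that works with Ramp2, at -0.033.

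Markers of other cells in the sorted fraction were read beside Eng. Of 12 mural cell markers 5 were below 0, with a median of 0.028, and 4 had an unadjusted p under 0.05, though 0 passed over all genes by limma. Over all genes 2.84% had such a p on the lower and 2.45% on the higher side. Of the 4, the pericyte gene Rgs5 was lower, at -0.29, and Notch3 at 0.13, Des at 0.12 and Cspg4 at 0.14 were higher. The list mean ran from 9.60 to 9.70 in withdrawn and from 9.59 to 9.70 in supplied embryos. Of 15 macrophage markers 10 were below 0, with a median of -0.022, and 2 had an unadjusted p under 0.05, Itgam at -0.22 and Lyz2 at -0.30, beside Ptprc at -0.12. Their mean ran from 7.19 to 7.42 in withdrawn and from 7.21 to 7.44 in supplied embryos. With group means subtracted, Eng correlated with the mural mean at r = 0.347 (rho = 0.333, adjusted permutation p = 0.754 and 0.751) and with the macrophage mean at r = 0.0449 (rho = -0.127, adjusted permutation p = 0.954 and 0.801). These are 2 of 12 list means compared with Eng by the same exact permutation test, and 0 of the 12 passed. Without supplied embryo 2 and withdrawn embryo 4, r was 0.386 for the mural and -0.12 for the macrophage mean.

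Erythroid, platelet and immediate early genes gave 0 calls by limma and 0 at an unadjusted p under 0.05. Of 11 erythroid markers 7 were below 0, with a median of -0.032; Epb4.2 was at -0.14, Hemgn at -0.082 and Epor at -0.032. Platelet genes, which share some surface proteins with endothelium, were at 0.093 for Pf4 and 0.013 for Itga2b. The mean of 13 immediate early genes ran from 9.07 to 10.64 in withdrawn and from 9.32 to 10.62 in supplied embryos, so that it varied widely within both groups; Dusp1 differed by 0.11, Btg2 by -0.13 and Jun by 0.083. Among 3 germ cell markers Tdrd1 was at -0.20, with an unadjusted p under 0.05, Tfap2c at 0.067 and Nanos3 at 0.028. Of the 13 gonadal soma markers 6 were below 0, with Pdgfra, the 1 of unadjusted p under 0.05, at 0.15, and Wnt5a at 0.099. The share of all genes with such a p was 2.84% on the lower and 2.45% on the higher side. The part of these cell types in the difference of Eng was not tested beyond the correlations and covariates given.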

How the data were processed

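A single table was deposited by the authors, with expression per gene as rlog, a regularised log2 value. Per the submitters' processing notes, the genome build was mm9 and the tools were DESeq2 1.20.1, TopHat2 2.1.1 and Trim Galore 0.4.0. Each library was made from 2 ng of total RNA with a low-input kit, per the labels' protocols. Since rlog values hold no read totals, neither counting intervals nor a count model were used.

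Samples were grouped by the treatment label (n = 5 each) and all 10 columns matched a sample title. In each group 2 embryos share a title number, which may or may not mark a litter, so n = 5 may stand for 4 dams; p-values cover only the spread between these libraries. All genes with a mean of at least 3 (13578, none removed) were fitted with limma 3.58.1 in R 4.3.3, using a variance trend, no covariate and an adjusted p (Benjamini-Hochberg) of 0.05. Correlations used values with the group means subtracted and exact permutation within groups (Python 3.11.15). The steps were tested on simulated data. Genes named are the 10 members, the 3 of smallest p in each list, and the 5 most like Eng and the 5 most like the mean of the other 9. A few others, such as Acvrl1, Calcrl, Id1, Cspg4 and Fpgs, were named after their values were seen. The members, lists and tests were chosen with earlier results of these data known. Other settings were another mean minimum, variance or scaling choice, the replicate number as a block, averaging by title number, 2 covariates and left-out embryos. Gene overlaps came from GENCODE (GRCm38, not the build of the table) and were used for names only.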

Additional observations from a re-analysis of the deposited data

Results flagged for a closer look

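In 24 groups of 5 values (the 10 genes, the mean of the other 9 genes and the gap of Eng to it, in each treatment), 4 values, from 2 embryos, stood apart from the rest of their group by Dixon's criterion, which chance gives in about 1 of 20 groups. The groups reuse the same embryos and genes that vary together, so the 4 values are not independent. In supplied embryo 4, Flt1 was at 8.87 and Tek at 8.25, both above the other supplied embryos. In withdrawn embryo 1, Tek was at 7.78 and the mean of the other 9 genes at 9.11, both below the other withdrawn embryos. Eng was not set apart in either group.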

How the results depend on the processing

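Over 21 other settings the difference of Eng stayed between -0.45 and -0.33, its gap to the mean of the other 9 genes between -0.38 and -0.27, and the median of the 10 genes between -0.086 and -0.028. The count of the 10 genes called was 0 in the main fit and in 20 settings, and 1 with the immediate early covariate; that gene was Eng, which was chosen for its small p, so the call is no test. The count of all genes called, 3 in the main fit, was 1 without the variance trend, with quantile normalization or with title numbers averaged, 5 with robust variance or the endothelial covariate, and 11 with the immediate early covariate; with 1 embryo left out it was between 0 and 4. Flt1 differed by -0.016 with title numbers averaged. With 1 embryo left out it lay between -0.042 and 0.084, Kdr between -0.063 and 0.0033 and Emcn between -0.066 and 0.0053, so these directions are not settled. With the endothelial covariate the correlation of Eng with the mean of the other 9 was 0.278, and it was -0.013 with Pecam1, -0.17 with Cdh5, -0.10 with Kdr and -0.40 with Flt1. That with Kdr was -0.25 with the immediate early covariate and -0.18 without the 3 libraries of highest Fos. That with Tie1 was 0.0082 with title numbers averaged. With 1 embryo left out, the correlation with Kdr lay between -0.11 and 0.34 and that with Tie1 between -0.48 and 0.20, and that with the mean of the other 9 between 0.442 and 0.786. The cause was not tested. Embryos of the 2 groups with the same replicate number did not vary together (correlations of their deviations from -0.364 to 0.172). These values cannot exclude that such embryos were handled together. With the replicate block, 2 genes and 0 of the 10 were called, and the correlation of Eng with the mean of the other 9 was 0.807. With group and replicate means both removed, the 2 embryos of a number mirror each other, so this r is not comparable with that of the main setting. The unknown depth and the shrunken scale limit what can be read from weakly expressed genes such as Ecscr.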
